A study of Mus musculus with 4 samples.

Results

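The genes described are those of vesicle fusion and of the synaptic vesicle: the synaptotagmins, synapsins, syntaxins, syntaxin-binding proteins, Vamp and Snap proteins, the 4 Rab3 proteins, the Sv2 proteins and the complexins. They were taken by symbol from the single deposited table, by family name, and numbered 65 of 21937 genes. Earlier results of these data were known when the families were chosen. RNA sequencing had been done on superior cervical and stellate ganglia, the sympathetic ganglia of the neck and upper chest, of adult mice at postnatal day 60.

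In the Hand2 line the mutant carried Hand2 flox/del and the control Hand2 flox/+, on a B6.129/SVJ background. In the Gata3 line the mutant carried Gata3 flox/flox and the control Gata3 flox/+, on a background labelled B6.126/SV129 for the mutant and B6.129/SV129 for the control. All 4 groups also carried DbhCreERT2, a Cre recombinase that needs tamoxifen and is made where the promoter of dopamine beta-hydroxylase is active, and all were injected with tamoxifen for 10 days. The Cre was thus aimed at noradrenergic cells and not at the glia and other cells of the ganglia, and the controls too held 1 floxed allele beside it. Each genotype was 1 pool. The Hand2 mutant, the Hand2 control and the Gata3 control each pooled 16 ganglia of 4 mice, and the Gata3 mutant 32 ganglia of 8 mice, whose ganglia are described as rudimentary.

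The table sets a mutant column against a control column without naming the line. They are called the mutant side and the control side here, and neither was assigned to a labelled sample. The values are whole numbers of a normalised scale with no stated unit, so their depth and counting error are unknown. Their sums were 19135221 on the mutant side and 19343986 on the control side. With 1 column on each side there is no replicate spread and no test was run, so "higher" and "lower" describe these columns only. The p-values quoted are those in the authors' deposited table. In bulk ganglia, fewer neurons and less RNA per neuron cannot be told apart.

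The sides also differed outside these families. Hand2 itself, a basic helix-loop-helix factor, had a value of 2001 on the mutant side and 4749 on the control side, and Gata3 had 1050 on the mutant side and 1105 on the control side. Xist, the RNA of the inactive X chromosome, had 1595 on the mutant side and 114 on the control side, and the Y-linked gene Ddx3y was listed at 0 on the mutant side with 1206 on the control side. Of 12 skeletal muscle markers whose mean value reached 50, 11 were lower on the mutant side by at least 20%, and the 20 listed markers summed to 1014 on the mutant side and 3211 on the control side. Mb, Tcap and Cacng1 were listed at 0 on the mutant side. All 4 sensory neuron markers reported at that level were lower. The 12 reported at any level summed to 310 on the mutant side and 1059 on the control side. Of those under a mean of 50, Trpv1, Trpa1, Pou4f1 and Isl2 had the lower value on the mutant side. Calca, Prrxl1 and Tac1 had the higher one, at 33, 10 and 5 on the mutant side and 25, 3 and 3 on the control side. Mrgprd was listed at 0 on both sides. Of 17 macrophage markers 11 were higher, with sums of 5260 on the mutant side and 3823 on the control side, and none of these was at 0. The part of these differences in the values below was not tested.

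Neurons release transmitter when a vesicle docks at the plasma membrane and SNARE proteins on either membrane zip together. Vamp2 sits on the vesicle, and Stx1a and Snap25 on the plasma membrane, and syntaxin-binding proteins guide their assembly. Many synaptotagmins sense calcium, and complexins hold and prime the assembled SNAREs. Synapsins tether vesicles in a reserve, and Sv2 and Rab3 proteins ride on the vesicles themselves. Sympathetic neurons use this machinery for small vesicles and for the dense-core vesicles that carry noradrenaline and peptides. Other syntaxins, Vamp and Snap proteins serve the Golgi, endosomes and lysosomes of every cell.

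Most of these genes had near-equal values on the mutant and control sides. Of the 65, 54 had a mean value of at least 50 over the columns, the minimum set for computing ratios, 7 lay under it and above 0, and 4 were listed at 0 on both sides. Ratios are mutant side over control side, and log2 ratios were taken after adding 1 to each value. A gene was counted as lower where its value was at least 20% below that of the control side and as higher where it was at least 25% above it, the same step on the log2 scale in either direction. Of the 54, 38 lay within 1.1-fold and 49 within these limits. Near-equal values were not particular to these families. The interquartile range of log2 ratios over all 12043 genes at that level ran from -0.10 to 0.11. The share of all genes within 1.1-fold was not counted. Lower on the mutant side were 4 genes, Cplx2, Sv2c, Syn3 and Stxbp2, where 5.67% of all 12043 genes at that level were lower. Vamp5 was the 1 higher gene, where 4.35% of all genes were higher. At 1.5-fold Vamp5 was still counted and no member was lower, against 1.47% of all genes lower and 0.681% higher, and at 2-fold no member was counted, against 0.448% lower and 0.0332% higher. The count of 4 lower genes is thus close to the share over all genes, which is however made up mostly of weakly expressed ones.

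**Figure D1:**
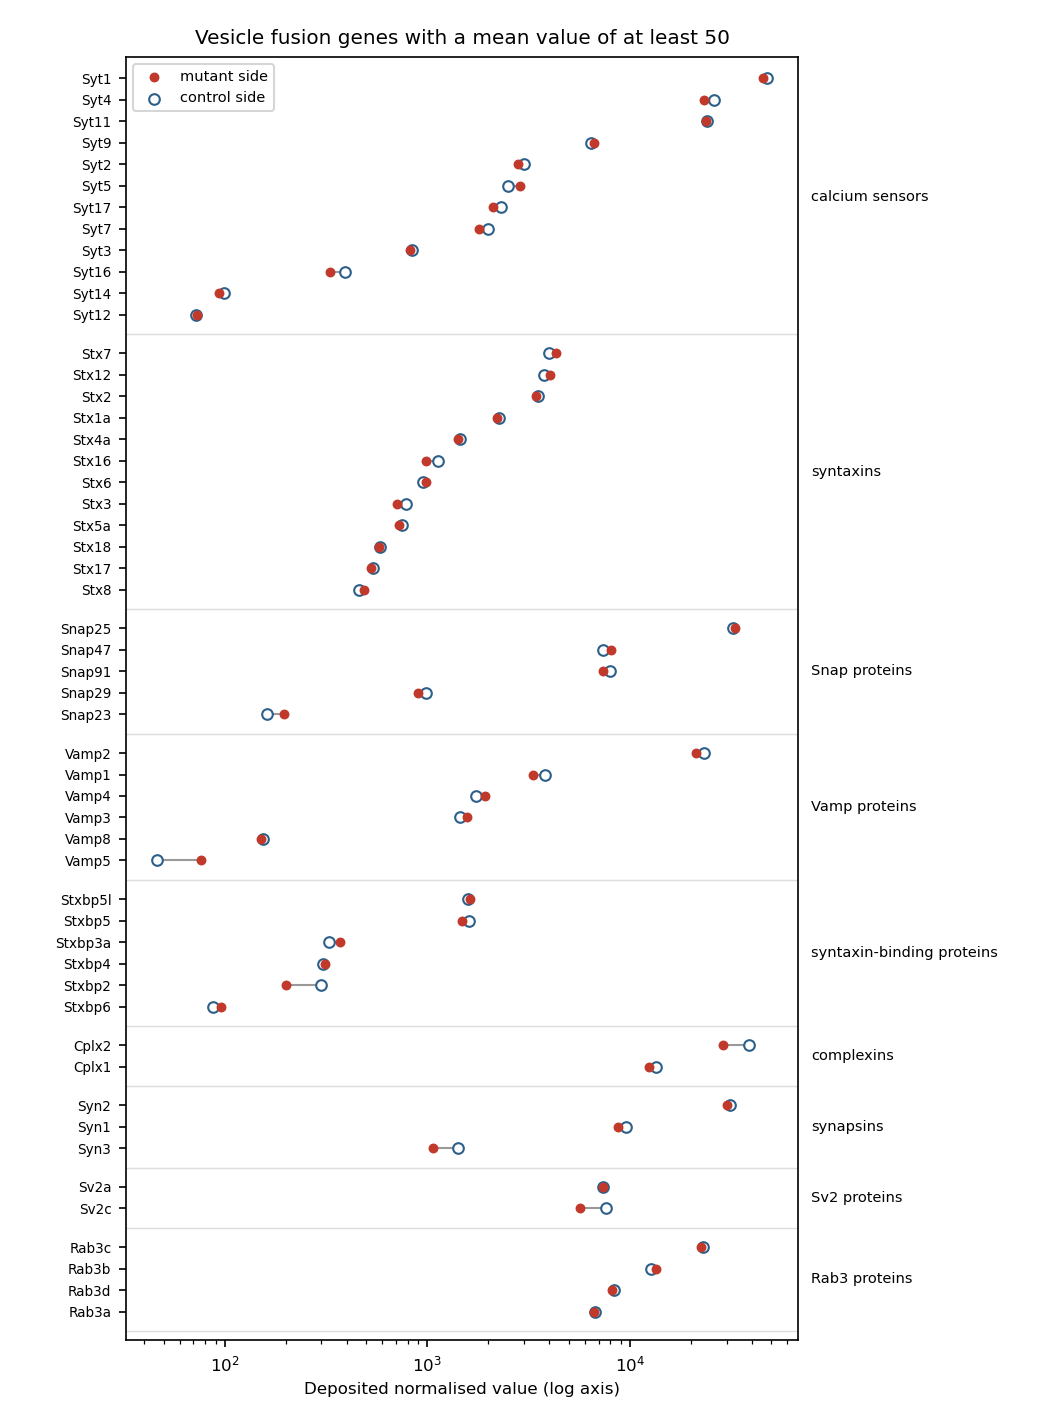
Deposited normalised values (log axis) of 52 vesicle fusion genes whose mean value reached 50, grouped by role, with filled points for the mutant side and open points for the control side. The points nearly coincide for most genes, and the longest gaps are those of Vamp5, Stxbp2, Sv2c, Cplx2 and Syn3.

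The share of genes that differ depends on level. Among all genes with a mean value of 5000 and over, 1.92% were lower and 0.886% higher. Of the 19 vesicle fusion genes at this level 2 were lower, Cplx2 and Sv2c, and none was higher. Among genes with a mean of 500 to under 5000, 2.46% were lower and 1.09% higher, and 1 of 24 members, Syn3, was lower. Among genes with a mean of 50 to under 500, 9.94% were lower and 8.64% higher, and of 11 members 1 was lower, Stxbp2, and 1 higher, Vamp5. The central 95% of log2 ratios ran from -0.29 to 0.23 in the highest range, from -0.32 to 0.27 in the middle one and from -0.61 to 0.50 in the lowest. Outside these limits lay 4 members, Cplx2, Sv2c and Syn3 below and Vamp5 above, while Stxbp2 lay inside. With 1 or 2 genes per range these shares rest on few members.

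**Figure D2:**
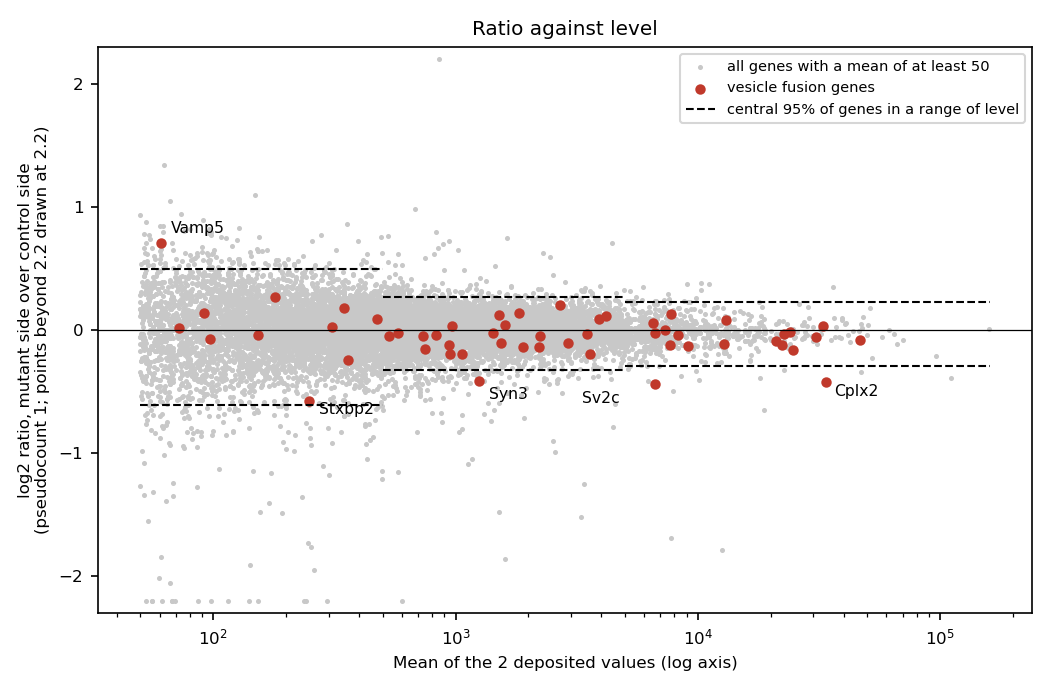
Log2 ratio of mutant side to control side (pseudocount 1, vertical axis) against the mean of the deposited values (log axis), for all 12043 genes whose mean reached 50 in grey and the 54 vesicle fusion genes in red. Dashed lines bound the central 95% of genes in each range of level, and Cplx2, Sv2c and Syn3 fall below them and Vamp5 above.

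Cplx2 had the highest mean value per kilobase of exon among these genes and showed the largest difference in deposited value. This complexin, a small protein that binds the assembled SNARE bundle, had a value of 28891 on the mutant side and 38605 on the control side. That is a ratio of 0.748, or a log2 ratio of -0.42. The authors' deposited table gives Cplx2 a p of 0.000381 and an adjusted p of 0.0879. Its close relative Cplx1 had 12369 on the mutant side and 13382 on the control side, a ratio of 0.924. Cplx1 was thus also the lower on the mutant side, but by a smaller step, inside the spread of genes of its level. Per kilobase, Cplx2 stood at 1.04 times Cplx1 on the mutant side and at 1.28 times on the control side. The other complexins, Cplx3 and Cplx4, known from the retina, were listed at 0 on both sides. Cplx2 alone made up 9714 of the 23266 by which the summed value of all 65 genes was lower on the mutant side, or 41.8%. That difference is net, since members with higher values on the mutant side offset part of it. With Cplx2 the sums had a ratio of 0.942, and without it 0.963. The ratio of sums was 0.989 for all genes of the table and 0.981 for those with a mean of 5000 and over.

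Sv2c, a glycoprotein of synaptic vesicles, had a value of 5659 on the mutant side and 7649 on the control side. The ratio was 0.740 and the log2 ratio -0.43, and the authors' deposited table lists a p of 0.000673 and an adjusted p of 0.141. Sv2a, the widespread form and the more abundant here, had 7341 on the mutant side and 7325 on the control side, a ratio of 1.0. Sv2b, common in the brain, had only 24 on the mutant side and 20 on the control side. The vesicle glycoprotein genes thus parted, with Sv2c lower and Sv2a level. Sv2c made up 26.9% of the Sv2 family per kilobase on the mutant side and 33.3% on the control side.

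Syn3, the least abundant synapsin gene, had a value of 1066 on the mutant side and 1422 on the control side, a log2 ratio of -0.42. The authors' deposited table gives it a p of 0.0162 and an adjusted p of 1. Syn1, a major brain synapsin, had 8735 on the mutant side and 9548 on the control side, a ratio of 0.915. Syn2, the synapsin that prevailed in these ganglia, had 30280 on the mutant side and 31385 on the control side, a ratio of 0.965. All 3 synapsin genes were the lower on the mutant side, and only Syn3 passed the limit of 20%. The gene for the protease inhibitor Timp3 lies within Syn3 on the opposite strand and covers 14.1% of its exon bases in the GRCm38 annotation. The strand setting of the counting is not stated in the sources used here, so reads of these genes may not be told apart. Timp3 had 7819 on the mutant side and 6992 on the control side. Whether its reads entered the value of Syn3 was not tested.

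Stxbp2 encodes the Munc18 protein that serves secretion in blood cells and epithelia, and it differed by the largest ratio among the lower genes at a far lower level. Its value was 200 on the mutant side and 299 on the control side, a log2 ratio of -0.58. The authors' deposited table gives it a p of 0.064 and an adjusted p of 1. Stxbp3a, the widely expressed Munc18 protein, had 369 on the mutant side and 326 on the control side. Stxbp2 and Stxbp3a thus differed in opposite directions, at log2 ratios of -0.58 and 0.18.

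To set the sequence before the start of lower genes beside that of abundant relatives, the 250 bases before the RefSeq start are printed below for Cplx2 and Cplx1, for Sv2c and Sv2a, and for Stxbp2. Of the other genes counted as lower or higher, Syn3 and Vamp5, no sequence is printed. They come from RefSeq, build GRCm38.p6, while the deposited values rest on mm9. Capitals mark each E-box, CANNTG, the motif bound by basic helix-loop-helix factors, the class to which Hand2 belongs. The motif reads the same on either strand, and none of the marked sites overlap. The windows are chr13:54302306-54302555, plus strand, for Cplx2, chr5:108550028-108550277, minus strand, for Cplx1, chr13:96132578-96132827, minus strand, for Sv2c, chr3:96180977-96181226, plus strand, for Sv2a, and chr8:3630859-3631108, plus strand, for Stxbp2.
Cplx2: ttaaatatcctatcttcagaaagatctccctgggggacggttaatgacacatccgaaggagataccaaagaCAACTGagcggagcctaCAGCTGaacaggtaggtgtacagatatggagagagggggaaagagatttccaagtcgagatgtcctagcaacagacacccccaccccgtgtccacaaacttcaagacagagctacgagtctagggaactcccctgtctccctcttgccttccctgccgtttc
Cplx1: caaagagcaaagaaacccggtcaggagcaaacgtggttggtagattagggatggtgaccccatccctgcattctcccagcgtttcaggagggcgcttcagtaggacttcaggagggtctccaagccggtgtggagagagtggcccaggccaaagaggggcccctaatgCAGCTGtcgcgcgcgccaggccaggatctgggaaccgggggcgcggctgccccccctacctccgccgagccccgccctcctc
Sv2c: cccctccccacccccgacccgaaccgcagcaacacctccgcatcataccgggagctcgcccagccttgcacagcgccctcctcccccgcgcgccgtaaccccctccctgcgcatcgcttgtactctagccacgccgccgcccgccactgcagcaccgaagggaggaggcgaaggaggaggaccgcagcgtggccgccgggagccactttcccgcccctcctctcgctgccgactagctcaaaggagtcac
Sv2a: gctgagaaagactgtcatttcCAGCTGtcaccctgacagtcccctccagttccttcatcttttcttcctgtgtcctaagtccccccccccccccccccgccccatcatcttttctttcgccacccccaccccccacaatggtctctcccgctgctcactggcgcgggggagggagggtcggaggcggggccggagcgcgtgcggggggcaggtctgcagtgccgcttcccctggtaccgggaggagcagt
Stxbp2: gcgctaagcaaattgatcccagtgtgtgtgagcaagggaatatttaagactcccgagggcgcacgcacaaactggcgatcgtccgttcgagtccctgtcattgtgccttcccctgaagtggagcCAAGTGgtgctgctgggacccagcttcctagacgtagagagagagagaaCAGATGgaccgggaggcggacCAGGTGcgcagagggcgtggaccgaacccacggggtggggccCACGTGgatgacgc

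Stxbp2 held 4 E-boxes, Cplx2 2, Cplx1 and Sv2a 1 each, and Sv2c none in these letters. The site CAGCTG stood in Cplx2, Cplx1 and Sv2a, that is, in 1 gene that was counted as lower and 2 that were not. Over all 32851 windows of this length 66.2% held at least 1 E-box, and among the 67 windows of the 51 vesicle fusion genes with an entry 70.1% did. Member windows had a median of 14 CG pairs and all windows a median of 6. Of the windows shown, Sv2c had 26 CG pairs, Stxbp2 17, Cplx1 15, Sv2a 13 and Cplx2 7. A match is only a description of the letters, and Hand2 binding was not measured here.

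The synaptotagmins differed little. Of 17 synaptotagmin genes 12 had a mean value of at least 50. On the log2 scale 9 of them were below 0 and 3 above, with a median of -0.08 and a range from -0.24 to 0.20. None was counted as lower or higher. Syt1, the fast sensor of transmitter release, had the highest value of all 65 genes, 45242 on the mutant side and 47785 on the control side. Syt4, a synaptotagmin of dense-core vesicles, had 23311 on the mutant side and 26015 on the control side, a ratio of 0.896. Both lay inside the spread of genes of their level. Syt11, which does not bind calcium, had 23775 on the mutant side and 24057 on the control side. Per kilobase these 3 genes made up 79.0% of the synaptotagmin family on the mutant side and 80.5% on the control side. The order by value per kilobase, Syt4, Syt1, Syt11, Syt9 and Syt5, was the same on either side.

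Of the other fast sensors, Syt9 had a value of 6682 on the mutant side and 6423 on the control side, and Syt2 had 2796 on the mutant side and 3013 on the control side. Syt5, found on dense-core vesicles, had 2874 on the mutant side and 2500 on the control side, a log2 ratio of 0.20 and the highest ratio of this family at that level. None of these passed the limits for lower or higher. Syt7, the slow sensor of high affinity, had 1800 on the mutant side and 1983 on the control side. Per kilobase Syt9 exceeded Syt2 about as strongly on each side, with 1679 against 366 on the mutant side and 1614 against 394 on the control side. Syt3, a calcium-binding form, had values of 821 on the mutant side and 844 on the control side, and Syt17 had 2103 on the mutant side and 2313 on the control side. Syt16 had 330 on the mutant side and 391 on the control side, Syt14 had 94 on the mutant side and 99 on the control side, and Syt12 had 73 on the mutant side and 72 on the control side. These forms are less studied, and none was counted as lower or higher. Syt15, Syt10, Syt13 and Syt6 had values from 8 to 42 on the mutant side and from 6 to 49 on the control side, too low for a ratio, and Syt8 was listed at 0.

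**Figure D3:**
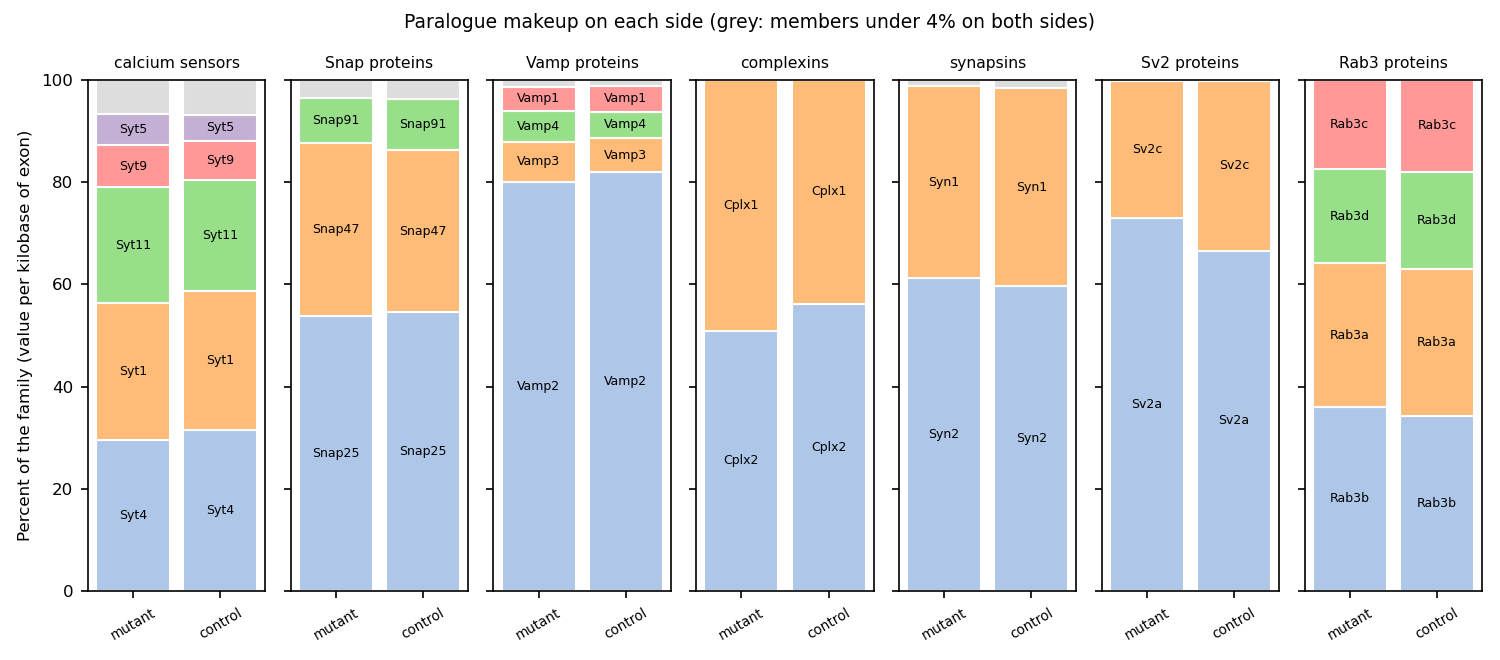
Share of each gene in its family's summed value per kilobase of exon (percent, stacked bars from 0 to 100), with the mutant side left of the control side. The largest shifts are those of Sv2c, which holds 26.9% of the Sv2 family on the mutant side and 33.3% on the control side, and of Cplx2, which holds 50.9% of the complexins on the mutant side and 56.2% on the control side.

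Snap25 and Stx1a, SNAREs of the neuronal plasma membrane, were near level. Snap25, the Snap protein of neurons, had a value of 33122 on the mutant side and 32400 on the control side, a ratio of 1.02. Stx1a, a neuronal syntaxin, had 2198 on the mutant side and 2268 on the control side, a ratio of 0.969. Per kilobase Snap25 stood at 4877 on the mutant side and 4771 on the control side, while Stx1a stood at 824 on the mutant side and 851 on the control side.

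The vesicle SNAREs of neurons were the lower on the mutant side by small steps. Vamp2, the main vesicle SNARE of synapses, had a value of 21251 on the mutant side and 23162 on the control side, a ratio of 0.917. Vamp1, its relative in spinal and motor neurons, had 3331 on the mutant side and 3815 on the control side, a ratio of 0.873. Each lay inside the spread of genes of its level. Per kilobase Vamp2 made up 80.1% of the Vamp family on the mutant side and 81.9% on the control side. Vamp5, known from muscle, was higher with 76 on the mutant side and 46 on the control side, a log2 ratio of 0.71. The skeletal muscle markers differed in the other direction, with sums of 1014 on the mutant side and 3211 on the control side. Whether Vamp5 follows the muscle content of the tissue was not tested. The authors' deposited table gives Vamp5 a p of 0.242, and its mean value of 61 lay just above the minimum of 50. Vamp7, a lysosomal form that most cell types use, was listed at 0 on both sides, so its level here cannot be read from the table.

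The SNAREs of endosomes, the Golgi and lysosomes were near level as well, 7 of them slightly higher and 6 slightly lower on the mutant side. Stx7, a late endosome syntaxin, had a value of 4341 on the mutant side and 3997 on the control side, and Stx12, of recycling endosomes, had 4021 on the mutant side and 3785 on the control side. Vamp4, of the trans-Golgi network, had 1919 on the mutant side and 1746 on the control side, and Vamp3, of recycling endosomes, had 1575 on the mutant side and 1446 on the control side. Snap47, a SNARE of intracellular membranes, had 8085 on the mutant side and 7371 on the control side. These 5 genes had ratios from 1.06 to 1.1, each the higher on the mutant side. Stx8, an endosomal syntaxin, had 489 on the mutant side and 458 on the control side, and Stx6, of the trans-Golgi network, had 982 on the mutant side and 957 on the control side. Stx16, also of the trans-Golgi network, had 988 on the mutant side and 1133 on the control side, a log2 ratio of -0.20 and the lowest among these genes.

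Stx5a of the Golgi had a value of 725 on the mutant side and 749 on the control side, Stx17 of autophagosomes had 524 on the mutant side and 541 on the control side, and Stx18 of the endoplasmic reticulum had 577 on the mutant side and 586 on the control side. Snap29, which serves autophagosomes among others, had 900 on the mutant side and 980 on the control side, and Vamp8 had 151 on the mutant side and 155 on the control side. All 5 were within 1.1-fold. Exons of Stx18 overlap those of Nsg1 on the opposite strand over 12.5% of their length, and those of Snap47 overlap Jmjd4 over 11.6%.

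Among plasma membrane forms outside the neuronal set, Stx4a had a value of 1420 on the mutant side and 1446 on the control side. Stx2 had a value of 3446 on the mutant side and 3513 on the control side, and Stx3 had 710 on the mutant side and 788 on the control side. Snap23, the widely expressed relative of Snap25, had 196 on the mutant side and 162 on the control side, a log2 ratio of 0.27, inside the spread at that level. Stx11, of immune cells, had 21 on the mutant side and 19 on the control side, and Stx19, of epithelia, had 1 on each side.

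The Rab3 proteins, small GTPases that bring vesicles to their release sites, were the most even family. Rab3a had a value of 6618 on the mutant side and 6715 on the control side, and Rab3c had 22357 on the mutant side and 22871 on the control side. Rab3d, known from exocrine cells, had 8169 on the mutant side and 8381 on the control side. Rab3b had 13437 on the mutant side and 12718 on the control side. The log2 ratios of all 4 lay between -0.04 and 0.08. Per kilobase Rab3b came first, at 3813 on the mutant side and 3609 on the control side, ahead of Rab3a at 2973 on the mutant side and 3017 on the control side.

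The remaining syntaxin-binding proteins reported, and Snap91, lay within the limits for lower and higher. Stxbp5, the tomosyn that competes with vesicle SNAREs, had a value of 1490 on the mutant side and 1598 on the control side, and its relative Stxbp5l had 1627 on the mutant side and 1580 on the control side. Stxbp6, amisyn, had 96 on the mutant side and 87 on the control side, and Stxbp4 had 312 on the mutant side and 306 on the control side. Snap91, a clathrin adaptor of synapses and no SNARE despite its symbol, had 7367 on the mutant side and 7996 on the control side, a ratio of 0.921.

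Grouped by where their proteins work, the neuronal genes leaned to lower values and the intracellular ones did not. This sorting was made by hand from general knowledge with the values known. Of 27 neuronal members whose mean value reached 50, 21 were below 0 on the log2 scale and 6 above, with a median of -0.09. Over all genes 48.8% were below 0, with a median of 0.00, and among genes with a mean of 5000 and over 55.1% were, with a median of -0.01. Without Cplx2, Sv2c and Syn3, 18 of the other 24 neuronal members were below 0, with a median of -0.07. Of 13 intracellular members 6 were below 0 and 7 above, with a median of 0.04. Of 6 cell-surface members outside the neuronal set 4 were below 0, with a median of -0.03. Of 8 other members, placed in none of these groups, 4 were below 0 and 4 above, with a median of -0.01. The difference between these groups was not tested, and 24 of the 27 neuronal ratios lay inside the central 95% of genes at the same level.

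**Figure D4:**
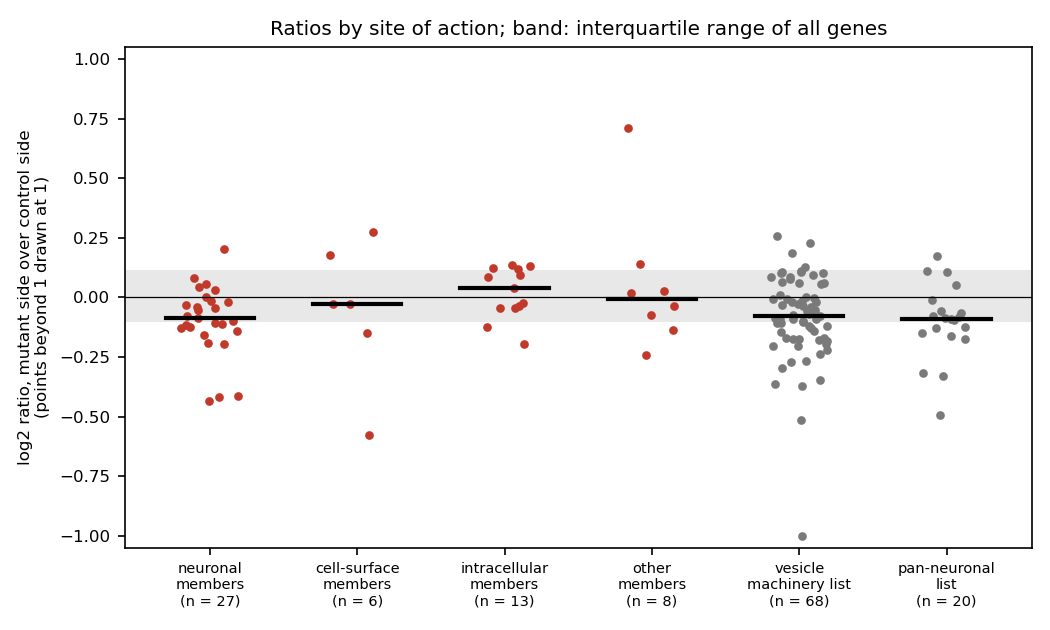
Log2 ratio of mutant side to control side (pseudocount 1) for each vesicle fusion gene, by the site where its protein works, and for the vesicle machinery and pan-neuronal lists. Bars are medians, the band is the interquartile range of all genes, and neuronal members have a median of -0.09, as does the pan-neuronal list, and intracellular members have one of 0.04.

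Most genes outside these families that serve the same steps also lay within the limits for lower and higher. A list of 75 genes of docking, priming, vesicle membranes and recycling had 68 with a mean value of at least 50, of which 49 were below 0 and 19 above, with a median log2 ratio of -0.08. Of these 5 were lower by at least 20%, Synpr, Sh3gl3, Rph3a, Synj2 and Ppfia4, where 5.67% of all 12043 genes at that level were lower, and none was higher, where 4.35% of all genes were. The count of 5 is thus near the share over all genes. Synpr, Sh3gl3 and Synj2 had means of 50 to under 500, the range in which 9.94% of all genes were lower. Synpr, synaptoporin, a vesicle membrane protein, had a value of 25 on the mutant side and 107 on the control side, 4.28-fold lower, and the authors' deposited table lists a p of 0.000698 and an adjusted p of 0.145. It stood far from the rest of the list. Rph3a, rabphilin, which binds Rab3 proteins on vesicles, had 3389 on the mutant side and 4382 on the control side, a log2 ratio of -0.37. Sh3gl3 and Synj2, an endophilin and a synaptojanin of vesicle recycling, had 199 and 253 on the mutant side and 285 and 326 on the control side. Ppfia4, a liprin, had 913 on the mutant side and 1163 on the control side.

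Of the same list, Doc2b, a calcium sensor that binds SNAREs, had a value of 6731 on the mutant side and 7946 on the control side, and Rimbp2, an active zone protein, had 3370 on the mutant side and 4071 on the control side. Doc2a had 78 on the mutant side and 96 on the control side, and Itsn2, a scaffold of endocytosis, had 1115 on the mutant side and 1342 on the control side. Scamp2, a carrier membrane protein, was the one higher gene among the 10 with the largest log2 ratios, at 608 on the mutant side and 509 on the control side. None of these 5 passed the limits. A pan-neuronal list of 20 genes, which holds no gene of vesicle fusion, had 16 below 0 and 4 above, with a median log2 ratio of -0.09, as for the neuronal members. The satellite glia and Schwann cell list of 16 genes had 4 below 0 and 12 above, with a median of 0.04. Whether the lower neuronal medians follow the neuronal share of the RNA was not tested.

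Ratios across all genes also moved with length. In the tenth of genes with the shortest exon sequence, a median of 1480 bases, the median log2 ratio was 0.11, and in the tenth with the longest, a median of 12874 bases, it was -0.05. Cplx2 has 4928 bases of exon, Sv2c 9700, Syn3 12282 and Stxbp2 4159. Measured from the median of genes of like length, a step added after the values were known, their log2 ratios were -0.40, -0.39, -0.37 and -0.58. That of Cplx1, a short gene with 2189 bases, was then -0.18 where it had been -0.11. The median over the 54 members was -0.04 with and without this step. That of the vesicle machinery list was -0.0766 without it and -0.0433 with it. The medians of the neuronal members and of the pan-neuronal list were not measured in this way.

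**Figure D5:**
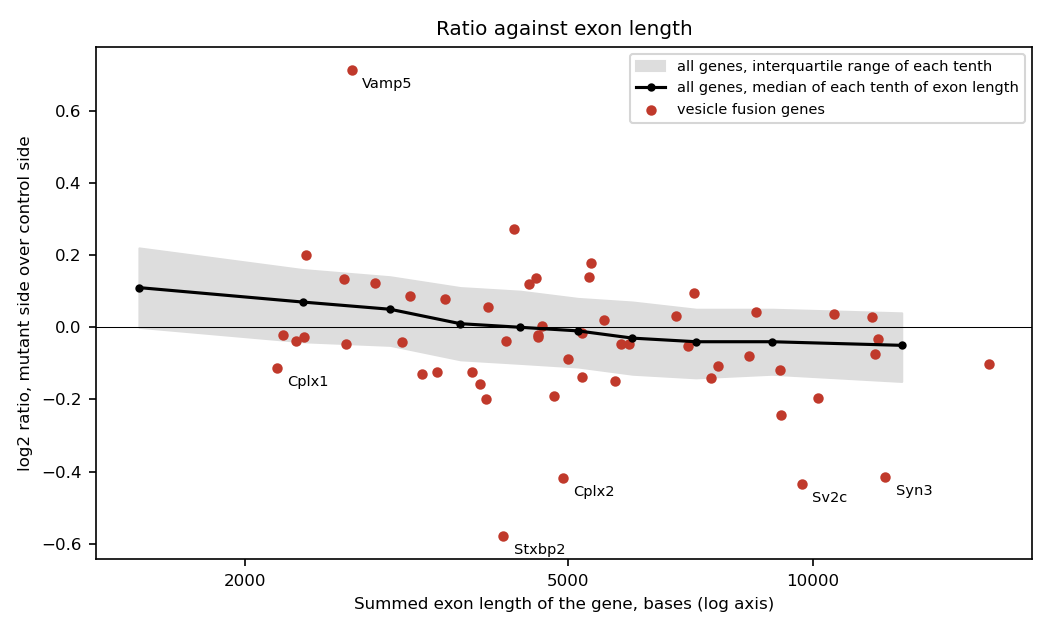
Log2 ratio of mutant side to control side (pseudocount 1) against summed exon length in bases (log axis) for the 54 vesicle fusion genes in red, with the median and the interquartile range of all genes in 10 bins of length. The line falls to -0.05 for the longest genes, and Cplx2, Sv2c, Syn3 and Stxbp2 lie well under it.

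In the authors' deposited table no vesicle fusion gene had an adjusted p under 0.05, where 0.365% of 16990 genes did. At an unadjusted p under 0.05 stood 3 of the 61 members with a p, Cplx2, Sv2c and Syn3, where 2.05% of all genes did. That share also depends on level. With a mean of 5000 and over, 39 of 677 genes and 2 of 19 members stood there. With a mean of 500 to under 5000, 177 of 6145 genes and 1 of 24 members did. The number of libraries behind the table's p-values is not stated in the sources used here. The lowest adjusted p among members in that table were 0.0879 for Cplx2 and 0.141 for Sv2c, neither of them under 0.05.

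Some of the vesicle fusion genes were among the most abundant transcripts of these ganglia, while 11 of the 65 had a mean value under 50. Among 21514 genes ranked by mean value per kilobase of exon, 5 of them stood in the first 100, namely Cplx2 at rank 70, Syt4 at 85, Cplx1 at 93, Vamp2 at 94 and Syt1 at 97. The first 200 held 10 and the first 500 held 15. Together the 65 genes took 1.98% of the summed values on the mutant side and 2.08% on the control side. Exon lengths were summed over all annotated transcripts, so a gene with long rare exons ranks too low.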

How the data were processed

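The submitters' processing notes name TopHat2 2.0.8, SAMtools 0.1.19, HTSeq 0.5.4p1, DESeq without a version and the build mm9, with no roles. Per the file headers, the deposited table holds DESeq-style group means, used here as a normalised score, as well as a fold ratio, p-values and adjusted p-values by the authors, which were copied. The column headed as mutant expression equals the mean of the group means in all 21937 genes and so served as no group value. The deposited fold equals the second group mean over the control column in all 16501 genes with a control value above 0, to a relative tolerance of 1e-09. The second group mean is called the mutant side. The median ratio of the columns was 1, and no rescaling was done.

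Log2 ratios used a pseudocount of 1 and a minimum mean value of 50, and genes at least 20% lower or 25% higher were counted with Python 3.11.15, pandas 2.3.3 and NumPy 2.4.6. Figures used Matplotlib 3.10.9. The counting was checked on simulated data with planted changes of 2-fold. No member differed by that much, so the check does not show how well smaller differences are counted. Ranges of level were bounded at 50, 500 and 5000. Exon lengths came from GENCODE for GRCm38 by symbol, for 98.1% of genes and 64 of 65 members. The members and lists were chosen with earlier results of these data known. Members were named with their values except a few genes that are not reported here, and of the vesicle machinery list the 10 with the largest log2 ratios. With 1 pool per genotype no test and no replicate check was possible. The single deposited table does not name its line, so no separate Hand2 or Gata3 comparison was possible either. Alternatives were a pseudocount of 10, minimum values of 20 and 200, equal column sums, folds of 1.5 and 2 and, added later, centring by exon length.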

Additional observations from a re-analysis of the deposited data

How the results depend on the processing

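No paired analysis was possible because each genotype was 1 pool and the table has 1 column per side. The 4 lower members stayed 4 with a pseudocount of 10, with minimum mean values of 20 and 200, with equal column sums and with centring by exon length, the last chosen after seeing the data. With a fold of 1.5 or of 2 the lower members numbered 0, and with a minimum of 200 or a fold of 2 the higher members numbered 0. The 5 lower genes of the vesicle machinery list numbered 1 with a fold of 1.5 or 2. By construction a larger fold or a higher minimum counts fewer genes. Over the alternatives for ratios, minimum, scaling and length, the median log2 ratio of the members ran from -0.0456 to -0.023. That of the machinery list ran from -0.0798 to -0.0433, the latter with centring by exon length. Vamp5 had a log2 ratio of 0.62 with a pseudocount of 10. Equal column sums moved the median of all genes to 0.018. The unit of the values is not stated, so counting error at low values, such as those of Vamp5 and Synpr, is unknown.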
